A study of Neurospora crassa with 12 samples.

Results

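The response to inorganic phosphate (Pi) of the control strain was examined in 6 of the 12 RNA-seq libraries of the series, namely the 3 high-Pi and the 3 low-Pi libraries labelled Δmus-52. Neurospora crassa is a filamentous ascomycete, and the series set a strain labelled Δpac-3, after the pH-signalling transcription factor gene pac-3, beside this control. Conidia of the control were taken from cultures of 5 days and grown in liquid medium, with 10 µM Pi for low-Pi and 10 mM Pi for high-Pi, for 5 h of germination at 30 °C, with sucrose at 44 mM and citrate at 50 mM to hold pH 5.4. The other 6 libraries are those of Δpac-3, which the study describes as made in a mus-52 deletion background and germinated from conidial cultures of 10 days, so that strain and culture age cannot be told apart. The paper calls the 3 samples of each group biological replicates.

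Fungi in low-Pi medium switch on a set of genes that recover Pi from outside the cell. In N. crassa the switch is the transcription factor NUC-1, which is held back by the cyclin PREG when Pi is plentiful and released through the ankyrin-repeat protein NUC-2 when Pi is scarce. Its best known targets are phosphatases, which free Pi from organic compounds, and high-affinity Pi transporters.

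The labels were first checked against mus-52 (NCU00077), the gene of an end-joining repair protein whose deletion gives the control its name. It had 970, 567 and 487 counts in low-Pi libraries I, II and III and 1344, 513 and 831 counts in the matching high-Pi libraries labelled Δmus-52, against 0 to 36 counts in the libraries labelled Δpac-3. The gene pac-3 (NCU00090) had 130 to 183 CPM in the libraries labelled Δpac-3, against 353 to 523 CPM in those labelled Δmus-52. The counts of mus-52 go against the label of the control, and those of pac-3 go against a complete loss of that gene in the other strain, so both strains are called here by the labels of their libraries. Whether the reads of pac-3 lie in the deleted part of the gene cannot be seen from counts per gene. Total counts ranged from 20851337 to 45358621 in low-Pi and from 28561952 to 66931215 in high-Pi. Levels are given as CPM, the counts of a gene relative to the TMM-scaled total of its library. Log2 fold changes are high-Pi minus low-Pi with their standard error (SE). The change and its SE come from a quasi-likelihood fit in edgeR to the 6 libraries labelled Δmus-52 alone. That fit did not pair libraries by replicate number, and a fit that did (the replicate block) is given as an alternative. The log2 CPM of libraries correlated at 0.994 to 0.996 within low-Pi, at 0.993 to 0.996 within high-Pi and at 0.968 to 0.985 between them, across genes, which are not independent replicates. High-Pi library III lay nearest to the low-Pi libraries, and values without it are given where they change a result.

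Most differentially expressed genes (DEGs) were down-regulated in high-Pi. With the study's thresholds, an adjusted p below 0.05 (edgeR quasi-likelihood test, Benjamini-Hochberg) and a change of 1.5 or more on the log2 scale, 295 of 8190 genes tested were modulated, or 3.6%. Of these, 285 (3.48% of genes tested) were lower and 10 (0.122%) were higher in high-Pi. The median log2 fold change over all genes tested was -0.01, a value that the scaling sets near 0. The 285 genes took 3.31%, 3.97% and 4.77% of all counts in low-Pi libraries I, II and III and 0.772%, 0.867% and 1.42% in high-Pi libraries I, II and III. The choice of the genes fixed that these shares would be lower in high-Pi. The high-Pi share was highest in library III, which was also the highest of the high-Pi libraries for 190 of the 285 genes. The number of DEGs was 341 without that library and 262 without low-Pi library III. In RNA from whole cultures, fewer cells expressing a gene and less of its RNA per cell cannot be told apart.

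**Figure D1:**
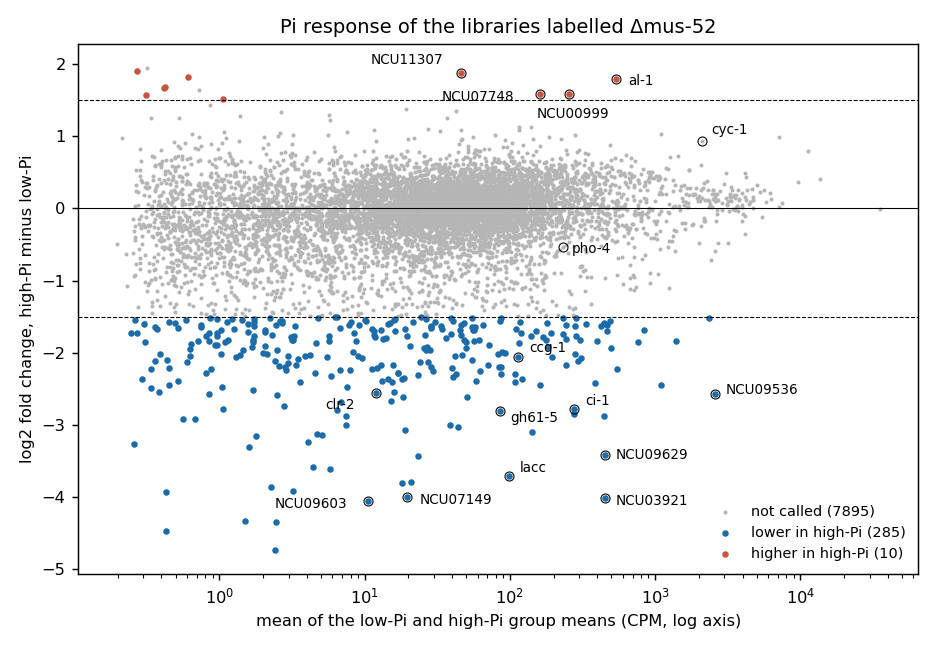
Log2 fold change (high-Pi minus low-Pi) of each of the 8190 genes tested against its level in CPM on a log axis, in the libraries labelled Δmus-52. Blue points are the 285 genes called lower and red points the 10 called higher in high-Pi, and dashed lines mark a log2 fold change of 1.5 in either direction. Called genes lie mostly below the lower line. Those called lower had a median level of 11.8 CPM, against 32.8 CPM for all genes tested.

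None of 9 genes of the Pi-acquisition system was modulated at both thresholds, where 3.6% of genes tested were. By the adjusted p alone 2 passed, both higher in high-Pi (14.4% of genes tested passed in that direction). With the replicate number as a block, the Pi transporter genes pho-4 and pho-5 also passed, as lower in high-Pi, which made 2 lower and 2 higher, where 21.6% and 18% of genes tested passed in those directions. Each of them was lower in high-Pi in all 3 pairs of libraries with the same number. The transcription factor gene nuc-1 had 93.4, 102 and 98.6 CPM in low-Pi libraries I, II and III and 85.8, 74.7 and 96.9 CPM in high-Pi, which is -0.21 ± 0.10 on the log2 scale (adjusted p = 0.144). Without high-Pi library III nuc-1 passed as lower (-0.29, adjusted p = 0.0476). Its upstream genes preg and nuc-2 had log2 fold changes of 0.10 ± 0.09 and 0.18 ± 0.11 (adjusted p = 0.435 and 0.212, edgeR).

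Among the Pi transporters, pho-4 (NCU09564), a sodium-coupled Pi symporter, had 229, 268 and 321 CPM in low-Pi, against 161, 154 and 257 CPM in high-Pi. High-Pi library III lay within the range of the low-Pi libraries and the other 2 high-Pi libraries lay below it. The log2 fold change was -0.54 ± 0.20 (adjusted p = 0.0593, edgeR), and -0.80 with an adjusted p of 0.00102 without high-Pi library III. It also passed without low-Pi library I (adjusted p = 0.0409). With the replicate number as a block pho-4 passed the adjusted p at a log2 fold change of -0.57 (adjusted p = 0.00101). The high-affinity Pi permease gene pho-5 (NCU08325) had 49.0, 55.5 and 82.1 CPM in low-Pi, against 37.9, 42.4 and 55.7 CPM in high-Pi, with overlapping groups (log2 fold change -0.47 ± 0.19, adjusted p = 0.0894). It passed with the replicate block (-0.46, adjusted p = 0.00128) and without high-Pi library III (-0.63, adjusted p = 0.0188) or low-Pi library I (-0.62, adjusted p = 0.0368), and was at -0.21 without low-Pi library III. None of these settings brought either gene to the fold threshold. DESeq2 gave both genes an adjusted p below 0.05 (0.014 for pho-4 and 0.0408 for pho-5).

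Among the enzymes that free Pi, 2 of 4 passed the adjusted p as higher in high-Pi. The alkaline phosphatase gene pho-2 (NCU01376) was low in every library, with 6.08, 5.81 and 6.25 CPM in low-Pi, against 8.80, 8.41 and 9.34 CPM in high-Pi. It rose in high-Pi without overlap between the groups (log2 fold change 0.53 ± 0.13, adjusted p = 0.0124, edgeR), but not without low-Pi library II (adjusted p = 0.052) or in a fit of the 12 libraries (0.0769). Phytases release Pi from phytate, and the phytase gene pht-1 (NCU06351) had 28.1, 28.7 and 26.1 CPM in low-Pi, against 32.1, 35.9 and 34.8 CPM in high-Pi (0.29 ± 0.09, adjusted p = 0.0369). That rise did not pass without low-Pi library I, II or III or high-Pi library II or III (adjusted p from 0.0548 to 0.129), nor with scaling to total counts (0.0652). NCU03255, which the study names as a 3-phytase, had a log2 fold change of -0.03 ± 0.12 (adjusted p = 0.853). The acid phosphatase gene pho-3 had 0.528 to 1.32 CPM in low-Pi, against 1.07 to 1.54 CPM in high-Pi (0.65 ± 0.35 on the log2 scale, adjusted p = 0.181). It passed as higher without low-Pi library II (1.13, adjusted p = 0.0458) and was at 0.34 without low-Pi library I.

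**Figure D2:**
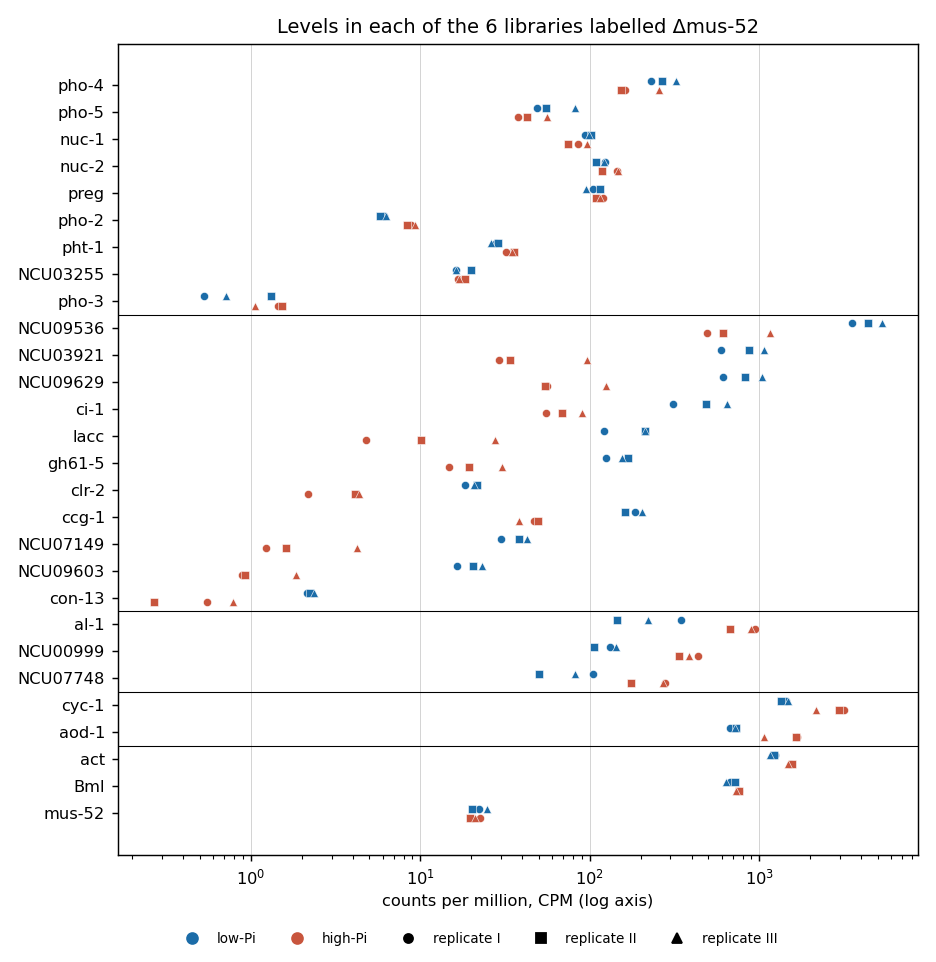
CPM on a log axis of the Pi-acquisition genes (top block), of genes lower and higher in high-Pi (the middle blocks), of cyc-1 and aod-1, and of the reference genes and mus-52 (bottom block). Each point is a library, blue for low-Pi and red for high-Pi, with a symbol for each replicate. The largest change of the top block is that of pho-3, 0.65 on the log2 scale. In contrast, NCU03921 lies between 593 and 1076 CPM in low-Pi, against between 29.3 and 96.0 CPM in high-Pi.

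Among genes of at least 5 CPM in low-Pi, most of the 12 largest falls were in genes for which the annotation gives no symbol. Most genes have none, as 1118 of the 9730 genes counted have a symbol. NCU09603 had 16.4, 20.6 and 23.1 CPM in low-Pi, against 0.890, 0.921 and 1.85 CPM in high-Pi, a log2 fold change of -4.05 ± 0.27 (adjusted p = 1.24e-05, edgeR). NCU03921, which the study names as the mitochondrial chaperone bcs1 (in yeast an inner-membrane protein that assembles the bc1 complex of respiration), had 593, 868 and 1076 CPM in low-Pi, against 29.3, 33.8 and 96.0 CPM in high-Pi. Its lowest low-Pi library was above its highest high-Pi library, and the log2 fold change was -4.01 ± 0.44 (adjusted p = 0.000162). NCU09629, a hypothetical protein in the study, had 615, 824 and 1041 CPM in low-Pi, against 55.7, 54.6 and 125 CPM in high-Pi (-3.42 ± 0.33, adjusted p = 7.73e-05). The other genes without symbol among the 12 largest falls were NCU07149, next below NCU03921 in size, NCU02740 (-3.92), NCU09613 (-3.81), NCU02939 (-3.79), NCU04148 (-3.61), NCU06641 (-3.59), NCU09627 (-3.43) and NCU10641 (-3.23), with means of 6.04 to 42.5 CPM in low-Pi. In each of them the 3 low-Pi libraries were above the 3 high-Pi libraries, as for 3955 of 8190 genes tested (48.3%) in either direction, and as the rule for these names required. Without high-Pi library III the log2 fold changes were -4.75 for NCU03921 and NCU07149, -5.03 for NCU09613 and -3.82 for NCU10641.

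Several of the falling genes were abundant. NCU09536 had 3536, 4410 and 5316 CPM in low-Pi, against 491, 611 and 1166 CPM in high-Pi (-2.57 ± 0.29, adjusted p = 0.000198). The 6 other down-regulated genes of highest level were NCU08229 (-2.44), NCU06875 (-2.23), NCU11050 (-1.85), NCU03591 (-1.83), NCU04410 (-1.68) and NCU04583 (-1.52), with means of 895 to 3481 CPM in low-Pi and no overlap between the groups. NCU04583 fell short of the fold threshold without low-Pi library III (-1.28) or high-Pi library I (-1.43) or II (-1.41), and NCU04410 without high-Pi library I (-1.44). In all, 64 of the 285 genes had at least 100 CPM in low-Pi, 130 fell by at least 2 and 28 by at least 3 on the log2 scale. Over both media, the median level was 11.8 CPM for the 285 genes, against 32.8 CPM for all genes tested.

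Most DEGs have no known function in the sources used here. Of the 295, 13 have a gene symbol, where 1118 of the 9730 genes counted have one. A product name in the study other than hypothetical protein is given for 30, and 37 have either. A further 62 are hypothetical proteins in the study and 196 have neither symbol nor product. The study's product names cover only genes that it listed as modulated by the deletion of pac-3, so they are not an even sample of the DEGs. Some of the falling genes lay side by side. Of the 285 genes, 83 (29.1%) had a down-regulated gene as direct neighbour, against 5.68% of all genes tested. They formed 40 runs of 2 or 3 genes, among them NCU09603 with NCU09604 (-4.05 and -3.14) and NCU09627 with NCU09629. Overlap with an annotated gene was found for 16.1% of the 285 genes and 25.3% of genes tested. It was also found for 16 of the 66 named genes, among them NCU03921, NCU09629 and NCU09536. Their counts could include reads of the overlapping gene.

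Genes of a list for plant polysaccharide degradation, in which laccase was counted, stood among the DEGs with a symbol. Of 56 such genes tested, 4 were modulated, all lower, where 3.48% of genes tested were. By the adjusted p alone 12 were lower and 3 higher (21.4% and 5.36%, where 18.1% and 14.4% of genes tested passed), and the median log2 fold change was -0.12. The share lower was near that of all genes tested, and the highest log2 fold change in the list was 0.72. The 12 became 7 in a fit of the 12 libraries, and the 3 became 1 without low-Pi library II or III or high-Pi library II. The gene of laccase (lacc, NCU04528), a secreted copper enzyme that oxidises phenols, had 122, 212 and 211 CPM in low-Pi, against 4.81, 10.1 and 27.5 CPM in high-Pi (-3.71 ± 0.53, adjusted p = 0.000767; -4.67 without high-Pi library III). The lytic polysaccharide monooxygenase gene gh61-5 (NCU08760) had 125, 168 and 155 CPM in low-Pi, against 14.9, 19.5 and 30.4 CPM in high-Pi (-2.81 ± 0.24, adjusted p = 3.6e-05). The transcription factor gene clr-2 (NCU08042), needed for growth on cellulose, had 18.5, 21.8 and 20.7 CPM in low-Pi, against 2.18, 4.15 and 4.37 CPM in high-Pi (-2.56 ± 0.23, adjusted p = 5.63e-05). No library of either medium overlapped the other in these 3 genes. The glycoside hydrolase gene gh7-1 fell by 1.17 on the log2 scale, from 16.7 ± 1.06 to 7.53 ± 1.17 CPM (SD, n = 3, adjusted p = 0.000268, edgeR).

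Other DEGs were described by their product names in the study. These were chosen after their values were seen, from called genes, and stand for no group. The multidrug resistance gene NCU07546 had 278, 353 and 436 CPM in low-Pi, against 60.9, 89.4 and 172 CPM in high-Pi (-1.75 ± 0.32, adjusted p = 0.00322, edgeR). The ABC exporter AtrF gene NCU08056 (-1.62) and the MFS multidrug transporter genes NCU06860 (-1.67) and NCU00306 (-1.51) fell without overlap between the groups. Each of these 4 exporters missed the fold threshold without high-Pi library I (-1.38 to -1.49), and NCU00306 also without high-Pi library II (-1.38) or low-Pi library III (-1.19). The gene of the glucose transporter NCU04963 fell by 1.68, and by 1.49 without high-Pi library I, and the glucose transporter gene hgt-1 fell by 0.97 on the log2 scale (597 ± 44.6 to 310 ± 91.5 CPM, SD, n = 3). The cycloheximide-inducible gene ci-1 (NCU05001) had 312, 487 and 651 CPM in low-Pi, against 55.2, 69.0 and 90.1 CPM in high-Pi (-2.78 ± 0.26, adjusted p = 6.33e-05). The gene of poly(ADP-ribose) polymerase (parp), which marks proteins at broken DNA, went from 180 ± 43.5 to 36.9 ± 35.6 CPM, and that of kynureninase (NCU09183), an enzyme of tryptophan breakdown, from 143 ± 28.8 to 29.5 ± 18.3 CPM (SD, n = 3, adjusted p = 0.0102 and 0.00203, edgeR). High-Pi library III had 77.8 CPM of parp, more than the other 2 high-Pi libraries together, and the log2 fold change of parp without it was -3.47.

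Other down-regulated genes with a product name were those of a lysine aminomutase (NCU02663, -2.20), a P450 monooxygenase (NCU05376, -1.97), a cyclin (NCU09085, -2.01), a flotillin domain protein (NCU05899, -1.90), a C2H2 zinc finger protein (NCU02203, -1.84) and a phosphatidic acid phosphatase (NCU09692, -1.79). The aspartyl- and glutaminyl-tRNA synthetase genes NCU07082 (-1.65) and NCU07926 (-1.56), whose products load amino acids onto tRNA, also fell. NCU07082 fell just short of the fold threshold without low-Pi library I, and NCU07926 without low-Pi library III (-1.47). The remaining DEGs with a symbol and at least 5 CPM were stk-26 and prk-3, at -1.59 ± 0.12 and -1.51 ± 0.11 on the log2 scale.

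Of 12 genes tested for conidiation, the formation of asexual spores, 6 passed the adjusted p as lower (50%, against 18.1% of genes tested) and none as higher, with a median log2 fold change of -0.44. The fluffyoid gene fld went from 91.5 ± 7.37 CPM in low-Pi to 38.7 ± 0.973 CPM in high-Pi (SD, n = 3, log2 fold change -1.27 ± 0.09, adjusted p = 1.43e-05, edgeR). The developmental gene acon-2 fell by 1.12, and con-13, at 2.16 to 2.36 CPM in low-Pi, against 0.269 to 0.787 CPM in high-Pi, fell by 2.03 on the log2 scale. The other 6 did not pass, with con-6 at 1.09 ± 0.55 and con-8 at 0.10 ± 0.48 on the log2 scale. The summed level of 7 conidial marker genes (al-1, con-6, con-8, con-10, con-13, eas and fl) was 178 to 403 CPM in low-Pi, against 711 to 977 CPM in high-Pi, of which al-1 made up most. Without al-1 the sum was 29.4 to 54.8 CPM in low-Pi, against 35.7 to 39.9 CPM in high-Pi, so the high-Pi range lay inside the low-Pi range. The count of 6 became 3 without low-Pi library I and in a fit of the 12 libraries.

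Among clock and light genes, ccg-1 (NCU03753), a clock-controlled and glucose-repressible gene, had 186, 163 and 204 CPM in low-Pi, against 46.9, 49.6 and 38.4 CPM in high-Pi (-2.06 ± 0.12, adjusted p = 1.08e-05). Carotenoid genes moved the other way. The phytoene dehydrogenase gene al-1 (NCU00552), for an early step of the orange carotenoids, had 348, 145 and 220 CPM in low-Pi, against 940, 675 and 897 CPM in high-Pi. All 3 high-Pi libraries were above all 3 low-Pi libraries, and the log2 fold change was 1.79 ± 0.27 (adjusted p = 0.00103). The carotenoid genes al-3 and ylo-1 rose by 0.81 ± 0.20 and 0.36 ± 0.09, the blue-light-inducible gene bli-4 by 1.09 ± 0.26 and the photolyase gene phr by 0.77 ± 0.20. In this list of 22 genes, 7 passed as higher and 4 as lower (31.8% and 18.2%, where 14.4% and 18.1% of genes tested passed). The number higher was 4 without low-Pi library II or III, and the number lower was 7 with the replicate block.

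Apart from al-1, the 10 genes modulated upwards included 3 of at least 5 CPM in high-Pi. NCU00999 had 132, 106 and 143 CPM in low-Pi, against 435, 338 and 386 CPM in high-Pi (1.58 ± 0.13, adjusted p = 3.66e-05), and NCU07748 had 104, 50.4 and 82.1 CPM in low-Pi, against 277, 175 and 272 CPM in high-Pi (1.58 ± 0.25, adjusted p = 0.00142). Both are hypothetical proteins in the study. Without low-Pi library II they reached 1.47 and 1.34, and NCU07748 reached 1.49 without high-Pi library I. NCU11307 had 18.1, 21.7 and 18.6 CPM in low-Pi, against 121, 79.7 and 17.9 CPM in high-Pi, so that high-Pi library III lay below all low-Pi libraries. The other 6, NCU00548, NCU03574, NCU04028, NCU05568, NCU05887 and NCU06504, were under 2 CPM in high-Pi.

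Smaller rises were common. By the adjusted p alone, 2666 genes (32.6% of those tested) passed, 1183 higher (14.4%) and 1483 lower (18.1%), and 2081 of them changed by less than 1 on the log2 scale. The median log2 fold change was 0.44 for those higher and -0.78 for those lower. Genes of the mitochondrion were frequent among the former. In the respiratory complexes III to V with cytochrome c, 12 of 14 genes tested were higher (85.7%) and none lower, with a median of 0.49. Cytochrome c (cyc-1), which carries electrons between complexes III and IV, had 1448, 1341 and 1481 CPM in low-Pi, against 3170, 2955 and 2170 CPM in high-Pi (0.93 ± 0.13, adjusted p = 0.000681, edgeR). The groups were apart, and high-Pi library III was again the nearest to low-Pi. The ATP synthase genes atp-1 and atp-2 and the complex III genes qcr7, qcr8, fes-1 and pep were among the 12, with log2 fold changes from 0.39 (atp-1) to 0.67 (qcr8).

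The machinery that carries proteins into mitochondria showed the same direction. Of 24 genes tested, 22 were higher in high-Pi (91.7%) and none lower, with a median log2 fold change of 0.45 and a range from 0.23 to 0.74. The outer-membrane insertase gene tob55 had 84.8, 75.2 and 56.9 CPM in low-Pi, against 138, 126 and 107 CPM in high-Pi (0.74 ± 0.15, adjusted p = 0.00442, edgeR). The small chaperone gene tim8 rose by 0.66 ± 0.10, and the channel gene tom40 by 0.40 ± 0.08. In the tricarboxylic acid cycle 11 of 17 genes were higher (64.7%, median 0.39), with cit-1, for citrate synthase, rising from a mean of 761 to one of 1047 CPM (0.44 ± 0.12). In complex I, the entry point of electrons from NADH, 14 of 32 were higher (43.8%, median 0.29), led by nuo11.5 (0.71 ± 0.15) and the assembly factor gene cia30 (0.63 ± 0.09). None of these 4 lists had a gene that passed as lower or reached the fold threshold.

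The counts in these lists depended on single libraries. So did the number of all genes that passed as higher, which went from 1183 to 597 without low-Pi library II and to 634 without high-Pi library II. Leaving out low-Pi library II gave 15 genes for import and 4 for complex I, and leaving out high-Pi library II gave 16 and 5, with 9 for complexes III to V. The tricarboxylic acid cycle had 6 without high-Pi library II and 7 without low-Pi library II or III. Complex I had 6 without low-Pi library III or high-Pi library I, 5 in a fit of the 12 libraries and 9 with scaling to total counts. The alternative oxidase gene aod-1, whose product passes electrons directly to oxygen, had 672, 732 and 721 CPM in low-Pi, against 1679, 1659 and 1076 CPM in high-Pi (1.03 ± 0.15, adjusted p = 0.000946). Its paralog aod-3 fell by 0.69 ± 0.16.

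**Figure D3:**
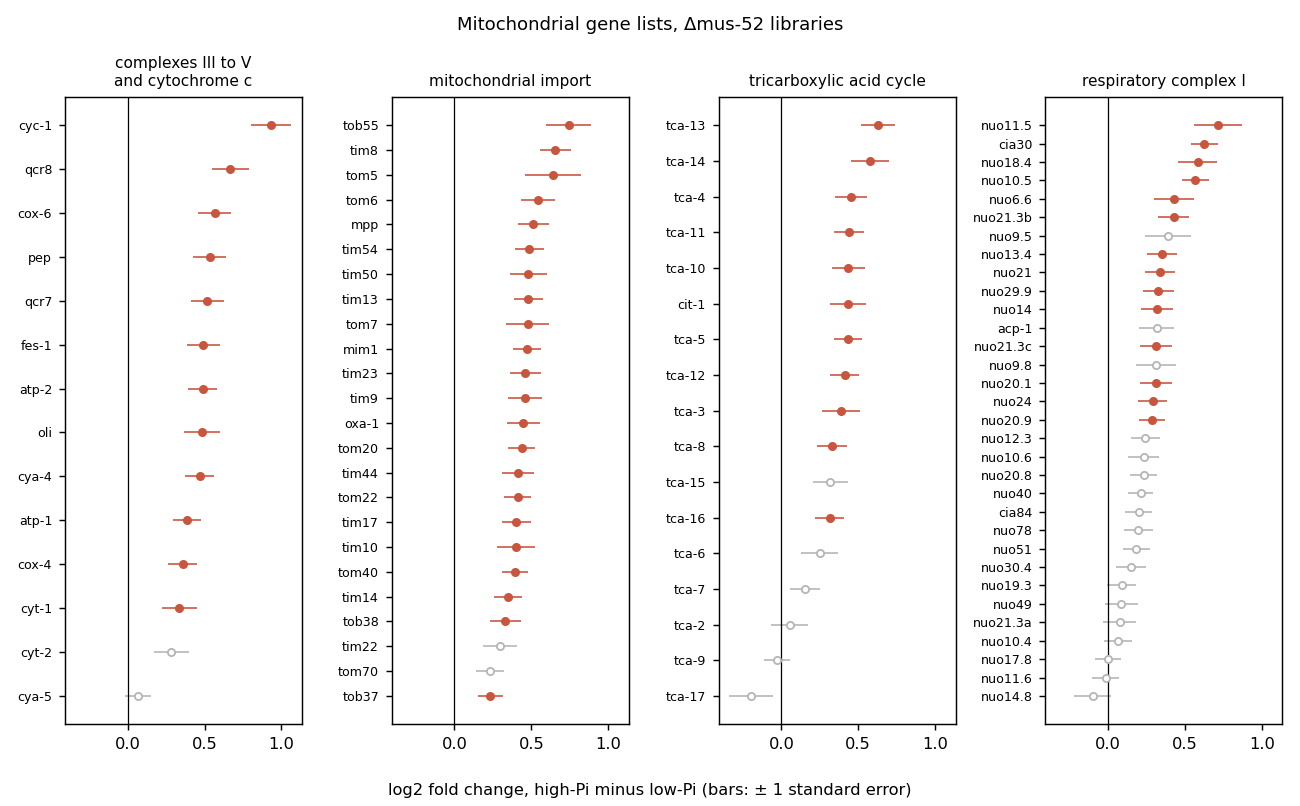
Log2 fold change (high-Pi minus low-Pi, bars ± 1 SE from the edgeR fit) of each tested gene of 4 mitochondrial lists, in the libraries labelled Δmus-52. Filled red points passed an adjusted p of 0.05 and open grey points did not. Points lie mostly right of 0, with cyc-1 farthest at 0.93 and tca-17 farthest left at -0.20.

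Other groups that rose were smaller, and are read against 14.4% of all genes tested higher and 18.1% lower. Genes of sulfur assimilation were higher in 6 of 13 (46.2%) and lower in none, among them cys-11, for the enzyme that activates sulfate (469 ± 102 to 801 ± 142 CPM, SD, n = 3, log2 fold change 0.75 ± 0.17). Subunit genes of the vacuolar ATPase, the proton pump of the vacuole, were higher in 6 of 14 (42.9%), with changes from 0.27 to 0.50, but in 1 or 2 without low-Pi library II or III or high-Pi library I or II. The sulfur count was 3 in a fit of the 12 libraries. Antioxidant genes were mixed, with 6 of 15 higher, 3 without low-Pi library II, and 2 lower. The superoxide dismutase gene sod-1 rose by 0.75 ± 0.13, from 253 ± 38.7 to 433 ± 48.1 CPM (SD, n = 3), while the catalase gene cat-2 fell by 1.15 ± 0.14, from 34.2 ± 4.87 to 15.7 ± 2.25 CPM. Of 11 cytosolic ribosomal protein genes, 2 passed as higher (18.2%, near the share of all genes tested), with a median of 0.12. The number was 0 without low-Pi library I or II or high-Pi library II. No histone gene of 9 passed the adjusted p in edgeR, and 2 had an unadjusted p below 0.05.

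The next lists are read against the shares of all genes tested, 14.4% higher and 18.1% lower. In amino acid biosynthesis 6 of 55 genes were higher and 12 lower (10.9% and 21.8%, median -0.02). The gene thr-5 fell by 1.04 ± 0.12. The gene arg-3, for a subunit of carbamoyl phosphate synthetase, fell from 3102 ± 229 to 2090 ± 178 CPM (SD, n = 3). In contrast leu-1, for an enzyme of leucine synthesis, rose by 0.64 ± 0.11. The share lower was near that of all genes tested, and the number lower was 4 without high-Pi library II and 7 without low-Pi library II. Of 39 DNA repair genes, 8 were lower (20.5%, also near that share; 5 without high-Pi library II) and 1 higher. They included rad16 (45.8 ± 8.05 to 15.5 ± 3.10 CPM, log2 fold change -1.57 ± 0.16), the DNA ligase gene mus-53 (-1.47 ± 0.23) and the recombinase gene mei-3 (-0.90 ± 0.11). The change of rad16 was -1.41 without low-Pi library III and -1.45 without high-Pi library II. Among transcription factor genes named for knockout phenotypes, 9 of 34 were lower (26.5%; 5 without low-Pi library III or high-Pi library II) and 1 higher, with fsd-1, a regulator of female sexual development, falling by 1.27 ± 0.11.

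**Figure D4:**
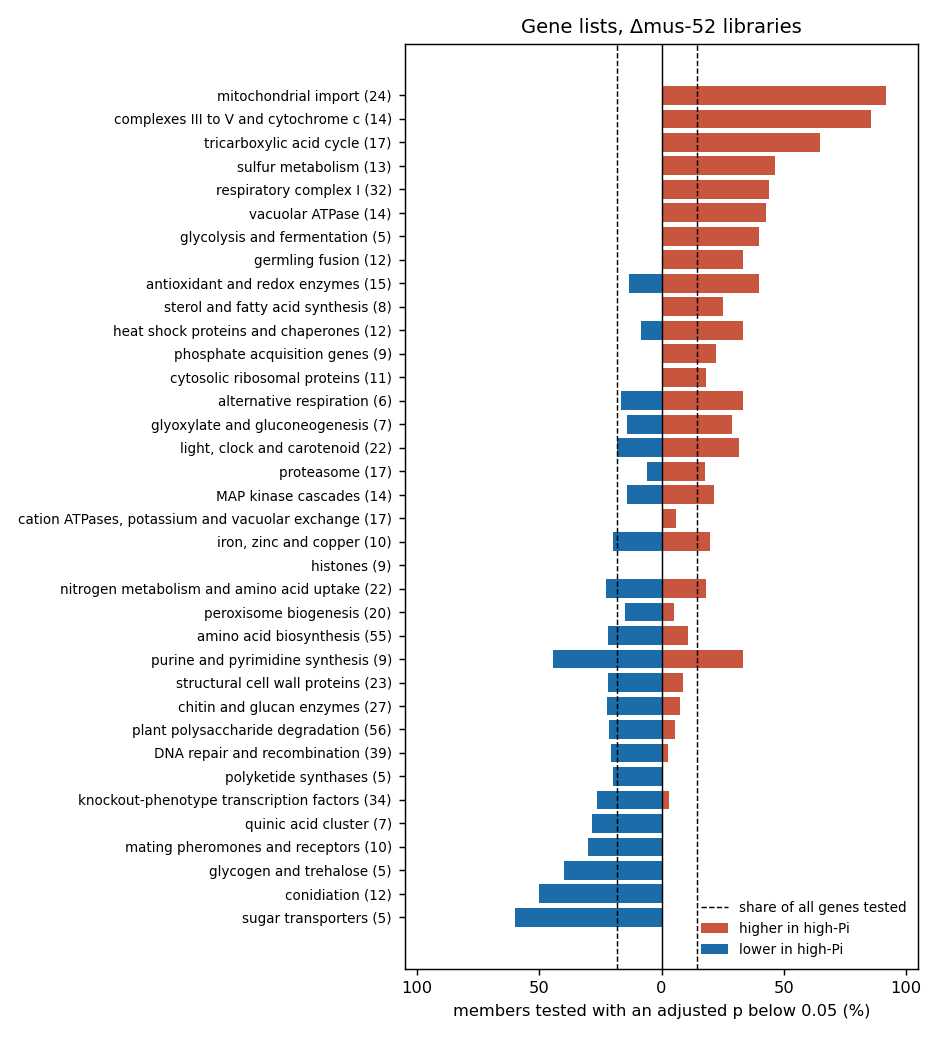
Share of the tested members of each gene list (number in brackets) that passed an adjusted p of 0.05 in the edgeR fit, to the right in red when higher and to the left in blue when lower in high-Pi. Dashed lines give the share of all genes tested, 14.4% higher and 18.1% lower. Mitochondrial import (91.7%) and complexes III to V (85.7%) reach farthest right, and sugar transporters and conidiation farthest left.

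Other values bear on single genes. The pheromone receptor gene pre-2 fell from 4.67 ± 0.62 to 1.00 ± 0.46 CPM (-2.20 ± 0.29), the glycogen primer gene gnn from means of 453 to 209 CPM (-1.14 ± 0.11) and the cell wall protein gene ncw-6 from 27.9 ± 5.34 to 10.4 ± 2.57 CPM (-1.46 ± 0.19, SD, n = 3, adjusted p from 5.87e-05 to 0.000532, edgeR). The gene pac-3 (NCU00090) itself fell by 0.40 ± 0.10, from 515 ± 7.59 to 397 ± 48.4 CPM (adjusted p = 0.0153; 0.0516 without low-Pi library II and 0.076 without high-Pi library II). Of the genes used as references for quantitative PCR in the study, actin (act) had 1235, 1218 and 1156 CPM in low-Pi, against 1541, 1573 and 1481 CPM in high-Pi, a rise of 0.32 ± 0.08 (adjusted p = 0.0123), and β-tubulin (Bml) had a log2 fold change of 0.12 ± 0.08 (adjusted p = 0.291). The rise of actin had an adjusted p of 0.0631 without high-Pi library II.

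The same comparison was made in Δpac-3. There 0 of 8348 genes were modulated and 0 passed the adjusted p (edgeR; 413 had an unadjusted p below 0.05, and DESeq2 called 6). The spread was larger there, with a common biological coefficient of variation of 0.208 against 0.12. A pass in 1 strain is no test of a difference, and strain and Pi were therefore fitted with an interaction term over the 12 libraries, in which 886 of 8465 genes passed (10.5%). Of the 285 genes that fell in the libraries labelled Δmus-52, 209 (73.3%) had an interaction, all toward a less negative or a positive change in Δpac-3. Of the 10 that rose, 4 had one. Because these genes were chosen on the Δmus-52 response, which is also a term of the interaction, the share describes them and is no independent test. Their median log2 fold change was -1.92 in Δmus-52 and 0.22 in Δpac-3, where 270 of the 285 could be tested. The latter was 0.02 without Δpac-3 high-Pi library II, 0.04 without high-Pi library III, 0.06 without low-Pi library I and 0.49 without high-Pi library I. In DESeq2, 5 of the 285 passed the adjusted p in Δpac-3, all as higher in high-Pi. The number with an interaction was 253 without Δpac-3 high-Pi library I and 124 without Δmus-52 high-Pi library II. The strains differed in mus-52 counts and culture age as well as in pac-3, which the interaction cannot tell apart.

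The levels of these genes in Δpac-3 varied from gene to gene. NCU03921 had 107, 231 and 248 CPM in Δpac-3 low-Pi and 71.3, 307 and 333 CPM in Δpac-3 high-Pi, where library I lay apart. The laccase gene lacc had 110, 303 and 303 CPM and 62.0, 445 and 248 CPM, all above its 3 Δmus-52 high-Pi libraries, whereas gh61-5 had 6.76 to 8.99 CPM and 4.14 to 14.9 CPM, below its Δmus-52 high-Pi level in every library except high-Pi III, which overlapped that range. The conidial markers without al-1 summed to 151 to 491 CPM in Δpac-3 low-Pi and 59.8 to 259 CPM in Δpac-3 high-Pi, above the 29.4 to 54.8 CPM of the Δmus-52 libraries. With al-1 the sums were 467 to 776 CPM and 403 to 588 CPM, and the markers' part in the differences between strains was not tested.

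**Figure D5:**
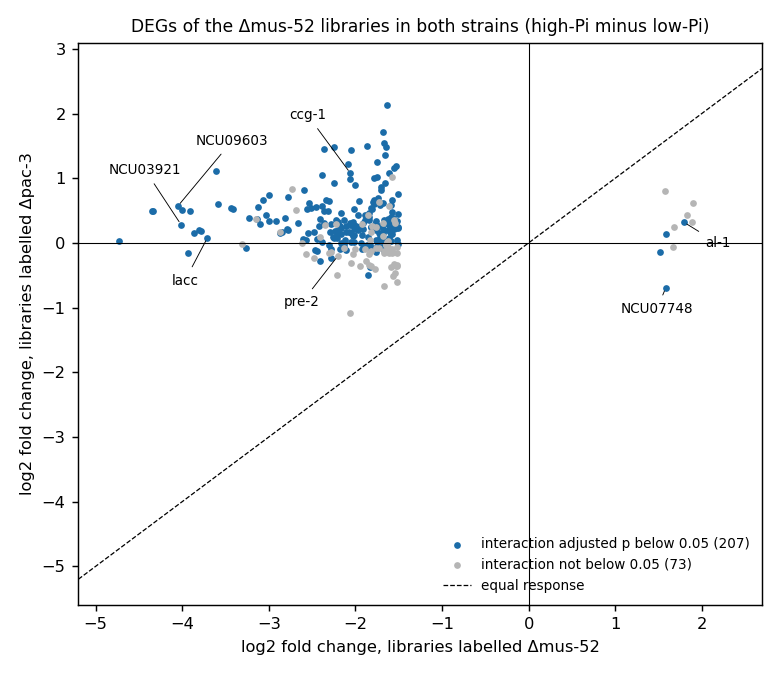
Log2 fold change (high-Pi minus low-Pi) in Δpac-3 against that in Δmus-52, by the labels of the libraries, for the genes modulated in the latter and tested in both. Blue points had an interaction of strain and Pi with an adjusted p below 0.05, and the dashed line marks an equal response. The genes that fell in Δmus-52 lie above the line, with a median of 0.22 in Δpac-3.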

How the data were processed

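RNA was sequenced by the authors as paired-end reads in 12 libraries, checked with FastQC 0.11.7, trimmed by quality and mapped to the NC12 assembly with Bowtie2 2.3.4, versions of both tools as given in the submitters' processing notes. The deposited values are raw counts per gene and library, without normalization by the authors. The counting tool and the use of strand are not given in the sources used here. Total counts were larger than the paper's mapped reads in every library, so a count need not stand for a separate fragment. The authors' tables of fold changes and p-values between strains were not used.

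Counts of the 6 libraries labelled Δmus-52 (3 per group, labels as deposited) were fitted in edgeR 4.0.16 (limma 3.58.1, R 4.3.3) with filterByExpr (minimum count 10, minimum total count 15), TMM factors and the quasi-likelihood F test. Every adjusted p without another tool named is the Benjamini-Hochberg value of that edgeR test over all genes tested. Genes were called where the adjusted p was under 0.05 and the log2 fold change (prior count 0.125) was 1.5 or more in either direction, and gene lists were counted by the adjusted p alone. CPM used TMM factors of all 12 libraries. DESeq2 1.42.0 was an alternative, besides other scalings, filters, thresholds, a fit of 12 libraries, a replicate block, and leaving out each library. Tables and figures used Python 3.11.15, pandas 2.3.3 and matplotlib 3.10.9. The procedure was tested on simulated data.

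The libraries held 20240314 to 82211503 counts, which limit the precision of genes of low level. No pair of Δmus-52 libraries differed as little as repeat counts of one library would (chi-square per gene from 28.7 to 105). Replicate numbers are shared by the groups. Deviations of same-numbered low-Pi and high-Pi libraries from their group means correlated at 0.435 (I), 0.197 (II) and 0.227 (III), so the numbers were taken to pair the samples. The main fit left this pairing out, and the list shares come from it. With the replicate number as a block, the genes that passed the adjusted p went from 1183 to 1476 higher and from 1483 to 1772 lower.

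Named genes were the Pi-acquisition genes, the 12 largest called rises and falls without overlap between groups and with at least 5 CPM in the higher group, up to 3 called genes per list and direction, the 8 called genes of highest level, and mus-52, pac-3 and the qPCR reference genes. The 25 others with a product name in the study were added after their values were seen, as were list members named without a call. The 37 lists, matched by gene symbol or identifier, and all comparisons were chosen with earlier results of these data known. Symbols and neighbours came from a table of the NC12 assembly, in which 9729 of 9730 identifiers were found. Of 66 named genes, 16 overlap another annotated gene, among them NCU03921, NCU09629, NCU02939, NCU04148, NCU10641, NCU09536, NCU11050, NCU04410, NCU04583, NCU06875 and pho-4, so their counts could include reads of that gene. Reads shared between paralogs were not examined.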

Additional observations from a re-analysis of the deposited data

Results flagged for a closer look

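The Pi response differed between the libraries labelled Δmus-52 and those labelled Δpac-3 for 46 of the 66 named genes. The criterion was the interaction of strain and Pi in edgeR over the 12 libraries (adjusted p below 0.05 over all genes tested). Of all genes tested, 10.5% passed it. Values below are the Δmus-52 response minus the Δpac-3 response on the log2 scale. They are negative where the change in high-Pi was more negative, or less positive, in Δmus-52 than in Δpac-3. Most of these genes were chosen for a large response in Δmus-52, which enters the interaction. The values cannot tell pac-3 apart from the differences in mus-52 counts and culture age.

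Among the genes with the largest falls the values were -4.69 for NCU04148, -4.60 for NCU09603, -4.48 for NCU07149, -4.42 for NCU02740, -4.27 for NCU03921, -4.17 for NCU06641, -3.99 for NCU09613, -3.96 for NCU09627, -3.95 for NCU02939, -3.93 for NCU09629, -3.77 for lacc and -3.60 for NCU10641. Among called genes of the lists they were -3.19 for gh61-5, -3.12 for ccg-1, -3.06 for clr-2 and -2.35 for con-13. The abundant genes had -2.59 (NCU09536), -2.49 (NCU08229), -2.30 (NCU06875), -1.77 (NCU03591), -1.77 (NCU11050) and -1.56 (NCU04410).

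The genes with a product name in the study had -3.46 (NCU03660), -3.11 (NCU07082), -2.96 (ci-1), -2.76 (NCU09692), -2.51 (NCU02540), -2.50 (NCU02663), -2.39 (NCU01510), -2.37 (NCU05376), -2.31 (NCU04260), -2.30 (NCU05899), -2.29 (NCU09821), -2.25 (NCU08267), -2.25 (NCU09085), -2.25 (NCU09183), -2.22 (NCU02203), -1.97 (NCU07925), -1.93 (NCU00306), -1.80 (NCU08056), -1.74 (NCU07926) and -1.74 (NCU07546). The genes that rose had 2.29 (NCU07748), 1.49 (al-1) and 1.46 (NCU00999).

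The Pi transporter gene pho-4 was the only Pi-acquisition gene of 9 with such a difference (-2.79), where 10.5% of all genes tested had one. Its log2 fold change was -0.54 in Δmus-52 (adjusted p = 0.0593) and 2.21 in Δpac-3 (adjusted p = 0.928, edgeR), and passed in neither. It had 0.241, 0.268 and 0.446 CPM in Δpac-3 low-Pi and 0.821, 1.12 and 2.36 CPM in Δpac-3 high-Pi, against 154 to 321 CPM in the Δmus-52 libraries.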

How the results depend on the processing

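Of the 295 DEGs, between 239 and 275 were also called after leaving out a library, where the total ranged from 262 to 341, with 4 (without low-Pi library II; 6 without high-Pi library II) to 15 higher and 255 to 326 lower. DESeq2 called 298 (285 shared). A fold threshold of 1 on the log2 scale gave 585 DEGs (34 higher, 551 lower), and a test against a log2 fold change of 1.5 (glmTreat) gave 48 (0 higher, 48 lower; 1 and 177 at an unadjusted p below 0.05). The number higher was 5 with an adjusted p below 0.01 or a filter of 1 CPM in 3 libraries, and 6 with a prior count of 2. By the adjusted p alone, 456 were higher and 904 lower at 0.01, and 705 and 949 in the fit of 12 libraries; leaving out a library gave 597 (without low-Pi library II; 634 without high-Pi library II) to 1442 higher. With the replicate block, for numbers that pair the samples, 306 genes were called (292 shared), and 1476 and 1772 passed the adjusted p. The block lost none of the calls of named genes and, besides those given above, gave 1 DEG in Δpac-3. DESeq2 gave 6 there and leaving out a library 0 to 17, the latter without Δpac-3 high-Pi library III. The interaction count was 1344 with DESeq2 and 392 (without Δmus-52 high-Pi library II) to 1585 (without Δpac-3 high-Pi library I) after leaving out a library, with 450 to 579 without low-Pi library II or III or high-Pi library I of Δmus-52 or any low-Pi library of Δpac-3. Over 18 alternatives for each named gene, the sign turned only for NCU03255, whose values after leaving out a library ran from -0.085 to 0.071. The cause of these changes was not tested, apart from the thresholds themselves. Genes under 1 CPM rest on few counts, which limits the 6 rises under 2 CPM most.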

Other observations

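Further gene lists held smaller changes in the libraries labelled Δmus-52, counted by the adjusted p of edgeR against 14.4% of genes tested higher and 18.1% lower. Of 12 genes for the fusion of germlings, by which young hyphae join into a network, 4 were higher in high-Pi and none lower. They were ham-7 (82.9 ± 3.11 to 123 ± 4.94 CPM, log2 fold change 0.55 ± 0.08), ham-8 (0.51 ± 0.08), ham-6 (0.35 ± 0.09) and ham-3 (0.33 ± 0.08; SD and n = 3 for levels). The number was 3 without low-Pi library II and 2 in a fit of the 12 libraries.

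In purine and pyrimidine synthesis 3 of 9 genes were higher and 4 lower. The purine genes ad-9 (0.57), ad-5 (0.45) and ad-4 (0.39) rose, whereas ad-3A (-0.31), gua-3 (-0.39) and the pyrimidine genes pyr-3 (-0.27) and pyr-4 (-0.36) were lower, and the number lower was 0 without low-Pi library II. Of 12 heat shock and chaperone genes, grp78 (0.39), hsp60 (0.42), hsp70-5 (0.32) and hsp80 (0.28) were higher and hsp30 (-0.64) lower, with 0 higher without low-Pi library II. The sugar transporter genes sor-4 (-0.41) and NCU07607 (-1.39) fell besides hgt-1, 3 of 5 in all. In the proteasome list, matched by gene symbol or identifier, 3 of 17 genes were higher and 1 lower. The gene lower was rpn-4, which fell from 172 ± 9.90 to 97.6 ± 4.26 CPM (SD, n = 3, adjusted p = 0.00011, edgeR). The match does not tell subunits from other proteins.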
